A study of Homo sapiens with 4 samples.

Results

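The antigen presentation pathway of MHC class I was followed through 9 genes in Caco-2 cells, a human colorectal carcinoma line used as a model of the intestinal epithelium. They are the heavy chain genes HLA-B, HLA-C, HLA-E and HLA-F, the light chain B2M, the peptide transporter subunits TAP1 and TAP2, the loading factor TAPBP (tapasin) and the transactivator NLRC5. They were picked by symbol, and are 9 of the 37515 genes in the deposited count table. RNA-seq libraries, all marked WT in their titles, came from cells of a single line grown in transwells for 15 days. There were 2 libraries of unstimulated cells at 0 h (0 ng/ml IFNγ) and 2 of cells given 60 ng/ml IFNγ in the basal compartment for 3 h. IFNγ and the 3 h that passed cannot be told apart. The labels do not say whether libraries of a condition came from separate cultures, so p-values measure the spread between these libraries only, which may be technical.

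Class I molecules display peptides from inside the cell to CD8+ T cells. The proteasome cuts the peptides, the transporter TAP (a dimer of TAP1 and TAP2) moves them into the endoplasmic reticulum, and tapasin bridges TAP to a heavy chain that is paired with B2M. HLA-B and HLA-C are classical heavy chains, while HLA-E and HLA-F are non-classical. HLA-E presents mainly leader peptides of other class I molecules to the CD94/NKG2 receptors of NK cells and CD8+ T cells. NLRC5 is recruited to class I promoters by RFX, CREB/ATF and NF-Y factors, whereas IRF1 binds interferon-responsive elements in the DNA itself. IFNγ is a classic inducer of the pathway.

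The promoters of these genes are shown because they carry the elements that such factors are known to bind. RefSeq had an entry for 7 of the 9 members, with HLA-E and NLRC5 having none. TAP1 has 2 annotated starts there and the others 1. The 250 bases before the start (for TAP1, the start farther upstream) are printed for 6 members, on GRCh38.p14 and 5′ to 3′ along the gene. Capitals mark AANNGAAA, the core of an interferon regulatory factor element, TGACG, the core of the cAMP response element, and CCAAT, the NF-Y box, each on either strand, and matches that overlap run together.
TAP1, chr6:32853705-32853954, minus strand: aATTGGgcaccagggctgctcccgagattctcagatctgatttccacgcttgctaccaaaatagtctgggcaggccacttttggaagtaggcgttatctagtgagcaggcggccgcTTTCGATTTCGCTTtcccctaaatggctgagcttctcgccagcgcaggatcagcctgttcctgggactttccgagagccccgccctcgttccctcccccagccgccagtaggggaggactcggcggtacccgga
TAP2, chr6:32838740-32838989, minus strand: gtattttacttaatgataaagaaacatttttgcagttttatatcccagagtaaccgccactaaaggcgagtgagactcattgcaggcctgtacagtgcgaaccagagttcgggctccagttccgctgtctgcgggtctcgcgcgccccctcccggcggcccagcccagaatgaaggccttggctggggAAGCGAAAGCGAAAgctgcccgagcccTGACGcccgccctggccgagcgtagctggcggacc
TAPBP, chr6:33314079-33314328, minus strand: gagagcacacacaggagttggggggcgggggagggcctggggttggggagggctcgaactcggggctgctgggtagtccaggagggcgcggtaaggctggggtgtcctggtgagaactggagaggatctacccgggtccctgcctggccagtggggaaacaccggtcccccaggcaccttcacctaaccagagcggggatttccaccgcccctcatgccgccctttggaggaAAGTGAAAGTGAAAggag
B2M, chr15:44711267-44711516, plus strand: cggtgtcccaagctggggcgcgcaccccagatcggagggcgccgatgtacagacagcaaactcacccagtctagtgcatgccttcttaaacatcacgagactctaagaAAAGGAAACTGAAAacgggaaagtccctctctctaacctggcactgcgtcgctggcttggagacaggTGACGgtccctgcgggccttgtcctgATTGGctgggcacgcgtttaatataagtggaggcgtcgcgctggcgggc
HLA-B, chr6:31357180-31357429, minus strand: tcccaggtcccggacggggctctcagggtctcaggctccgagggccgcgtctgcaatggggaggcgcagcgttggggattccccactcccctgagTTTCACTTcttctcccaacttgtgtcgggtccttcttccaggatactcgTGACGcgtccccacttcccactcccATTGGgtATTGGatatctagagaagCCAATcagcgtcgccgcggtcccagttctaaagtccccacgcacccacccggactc
HLA-C, chr6:31272093-31272342, minus strand: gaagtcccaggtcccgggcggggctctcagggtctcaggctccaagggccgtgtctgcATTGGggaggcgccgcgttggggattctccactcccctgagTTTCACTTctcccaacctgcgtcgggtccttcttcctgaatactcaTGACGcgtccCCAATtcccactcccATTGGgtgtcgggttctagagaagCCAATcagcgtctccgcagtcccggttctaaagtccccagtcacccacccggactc
AANNGAAA was found in these windows for each of the 7 members but on neither strand of the second TAP1 promoter, and 20.3% of 35116 RefSeq promoters of the same length held it. TAP1, TAP2, TAPBP and B2M each held 2 overlapping copies, which 4.54% of all promoters did with 2 or more copies of any spacing, and HLA-B, HLA-C and HLA-F held 1. TGACG was in TAP2, B2M, HLA-B and HLA-C (21.2% of all promoters), and CCAAT in B2M, HLA-B, HLA-C, HLA-F and the printed TAP1 promoter (32.0%). TTCNNNGAA, a gamma-activated site, was found in the second TAP1 promoter and in no other window of the members (6.57% of all promoters). HLA-B also held GGGATTCCC, a κB site (0.362% of all promoters), left in lower case. HLA-B and HLA-C promoters were 89.0% identical over their alignment, and HLA-B and HLA-F 80.4%. These matches describe letters in the window and are not evidence of binding.

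Libraries held 7171455 to 10365346 counts, so that 1 CPM (a count scaled to the size of its library) was worth 7.14 to 10.3 counts. CPM values below were scaled by the TMM method. Of 10 IFNγ-induced genes listed as a check of the labels, 8 were tested and 7 were called higher, beside 2.88% of all tested genes. CXCL10 and CIITA were not tested. CXCL9, CD274 and SOCS1 had 0 to 4 counts in each unstimulated library and passed the filter on low counts only through their IFNγ libraries. Of 10 intestinal epithelial markers, 9 reached 1 CPM in some library and summed to 5755 and 6094 CPM in unstimulated and 7086 and 7794 CPM in IFNγ libraries. CDX1 had 0 to 5 counts, the intestinal factor CDX2 was called higher (log2 fold change 1.20, edgeR adjusted p = 0.00117), and the keratins KRT8 and KRT18 were at 0.84 and 0.88 (adjusted p = 0.00566 and 0.00873), short of the fold threshold. Of 10 leukocyte markers, CD14 and ITGAM reached 1 CPM. The leukocyte list summed to 6.91 and 7.57 CPM in unstimulated and 9.63 and 12.6 CPM in IFNγ libraries, with PTPRC, which defines leukocytes, at 0 to 2 counts. Of 7 stromal and endothelial markers, COL1A1, COL3A1, PDGFRB and VWF reached 1 CPM, and the list summed to 103 to 198 CPM with overlapping conditions. The part of these marker levels in the results was not tested.

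Expression of the pathway after IFNγ split into 3 genes that rose past the threshold and 6 that were not called. NLRC5, TAP1 and HLA-E were called higher, meaning an adjusted p-value under 0.05 by edgeR's quasi-likelihood test and an absolute log2 fold change above 1. None of the 9 was called lower. All 9 passed the filter on low counts, NLRC5 only through its IFNγ libraries. Over the 14820 genes tested, 2.88% were called higher and 4.40% lower (427 and 652 genes, or 406 and 285 once a trend with GC content and length was removed). An adjusted p-value under 0.05 in either direction was reached by 4 of the 9 members, against 20.0% of all tested genes. Both IFNγ libraries lay above both unstimulated ones for 8 members, against 31.6% of tested genes, the exception being B2M. The median log2 fold change of the members was 0.40, beside −0.01 over all tested genes.

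**Figure D1:**
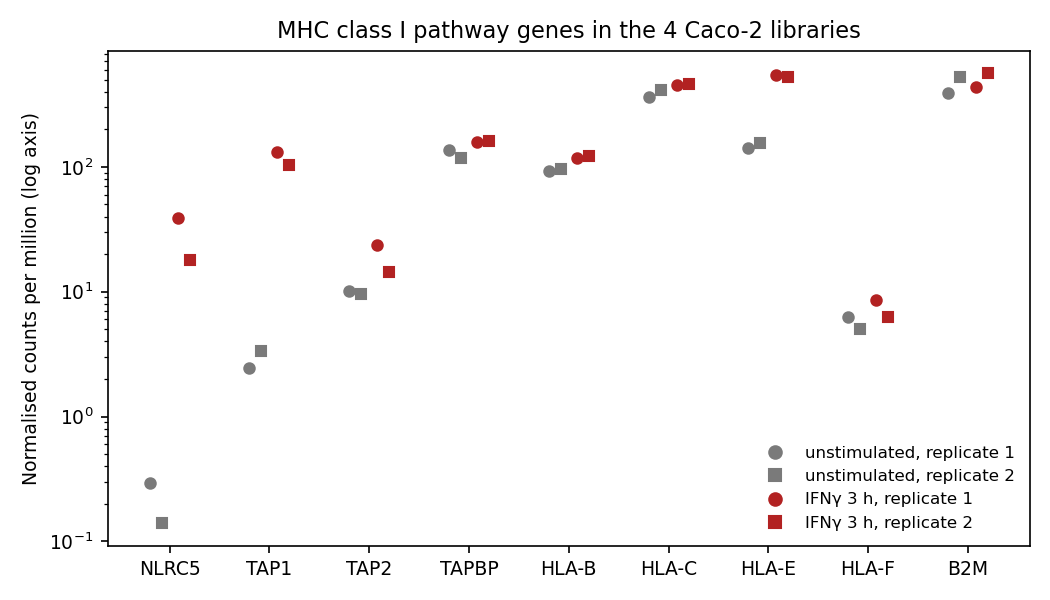
Normalised CPM (log axis) of the 9 class I pathway genes in each of the 4 Caco-2 libraries, with grey symbols for unstimulated and red symbols for IFNγ at 3 h, and circles and squares for replicates 1 and 2. NLRC5, TAP1 and HLA-E stand clear of their unstimulated values, while the B2M symbols of both conditions overlap.

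NLRC5, the class I transactivator (chr16:57023397-57117443 on GRCh37, plus strand), was close to absent before stimulation. Counts of 3 and 1 were found in unstimulated and of 403 and 132 in IFNγ libraries. The scaled levels were 0.292 and 0.140 CPM before and 39.2 and 18.0 CPM after IFNγ, or 0.216 ± 0.107 against 28.6 ± 15.0 (SD, n = 2 each). Every IFNγ value was far above every unstimulated value, and IFNγ replicate 1 was above replicate 2. The pooled scaled ratio was 132-fold with a 95% exact counting interval of 51.3 to 487, from 4 counts against 535, and this interval covers counting error only. The fitted log2 fold change was 6.89 (SE 0.62, edgeR adjusted p = 0.00122), and its size depends on the prior count because the unstimulated counts are so few. In bulk RNA, fewer cells of a type and less RNA per cell cannot be told apart, so more cells with NLRC5 transcripts and more transcripts per cell would look alike.

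The subunits of the peptide transporter had changes of different size. TAP1 (chr6:32812986-32821593 on GRCh37, minus strand) had 25 and 24 counts in unstimulated and 1344 and 759 counts in IFNγ libraries. In CPM this was 2.43 and 3.36 before and 131 and 104 after, with the conditions far apart. TAP1 rose 41.2-fold (95% interval 28.8 to 58.9), a log2 fold change of 5.36 (SE 0.22, edgeR adjusted p = 5.87e-05).

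TAP2 (chr6:32789610-32806516, minus strand), which makes up the other arm of the transporter and lies next to TAP1, had 105 and 68 counts before and 242 and 105 after IFNγ. The levels were 10.2 and 9.53 CPM in unstimulated and 23.5 and 14.3 CPM in IFNγ libraries, so the conditions did not overlap but the IFNγ libraries lay far from each other. The log2 fold change of 0.95 (95% interval 0.34 to 1.55) had an edgeR adjusted p of 0.0404 and fell just short of the fold threshold. TAP2 rested on IFNγ replicate 1. Without that library the log2 fold change was 0.52 (adjusted p = 0.194), and without IFNγ replicate 2 it was 1.22 (adjusted p = 0.00323) and TAP2 was called higher. Without unstimulated replicate 1 or 2 its adjusted p-value was 0.0881 or 0.101.

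Per kilobase of exon, TAP1 transcripts were at 0.520 and 0.772 times the TAP2 level in the unstimulated libraries and at 12.1 and 15.8 times after IFNγ. TAP1 was thus the scarcer subunit transcript in both unstimulated libraries and the more abundant in both IFNγ libraries. The 95% intervals of the changes of these subunits lay apart, from 4.85 to 5.88 for TAP1 and from 0.34 to 1.55 for TAP2 on the log2 scale, though the difference itself was not tested.

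TAPBP, which holds empty heavy chains at the transporter (chr6:33267471-33282061, minus strand), had 1407 and 845 counts in unstimulated and 1615 and 1171 counts in IFNγ libraries. The levels were 137 and 118 CPM before and 157 and 160 CPM after, with both IFNγ libraries above. The log2 fold change of 0.31 (95% interval 0.03 to 0.59) had an edgeR adjusted p of 0.112.

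**Figure D2:**
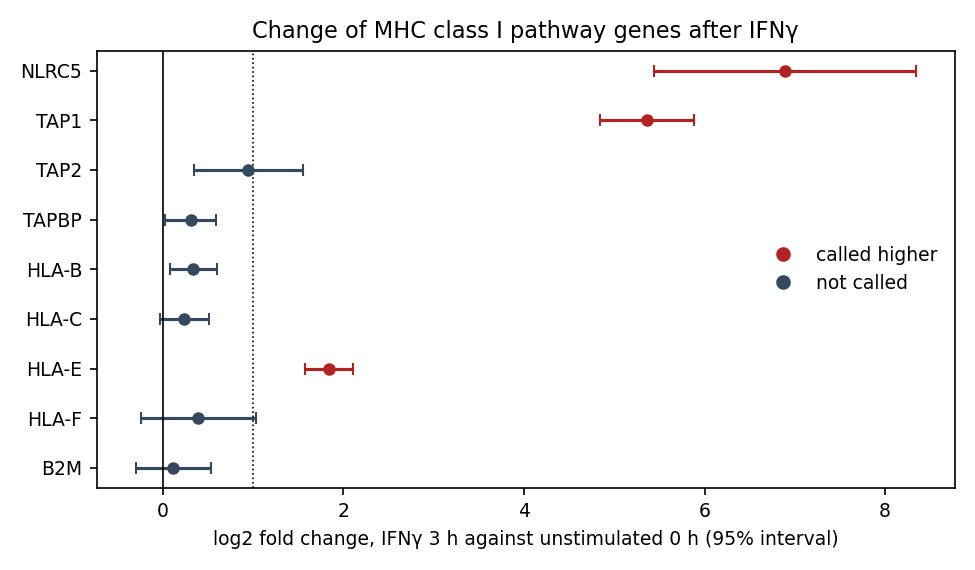
Log2 fold change of each class I pathway gene, IFNγ at 3 h against unstimulated at 0 h, with 95% intervals from the edgeR fit, the solid line at no change and the dotted line at the fold threshold. NLRC5, TAP1 and HLA-E (red) lie past the threshold, and TAP2 at 0.95 lies just short of it.

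Among the heavy chains, the non-classical HLA-E alone was called. HLA-E (chr6:30457286-30461971, plus strand) had 1450 and 1106 counts before and 5580 and 3815 after IFNγ. The levels were 141 and 155 CPM in unstimulated and 543 and 521 CPM in IFNγ libraries, or 148 ± 9.73 against 532 ± 15.7 (SD, n = 2 each). The spread within conditions was small beside the distance between them. HLA-E rose 3.59-fold (95% interval 2.99 to 4.32), a log2 fold change of 1.84 (SE 0.11, edgeR adjusted p = 0.000331).

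HLA-B, a classical heavy chain (chr6:31321649-31334844, minus strand), had 945 and 688 counts before and 1201 and 894 after. This was 92.0 and 96.4 CPM in unstimulated and 117 and 122 CPM in IFNγ libraries. The conditions did not overlap, with a log2 fold change of 0.34 (95% interval 0.08 to 0.60), but the edgeR adjusted p was 0.0710. With upper quartile scaling it was 0.0460, below the threshold.

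HLA-C, the other classical heavy chain (chr6:31236526-31239907, minus strand), had 3690 and 2958 counts before and 4660 and 3375 after. This was 359 and 414 CPM in unstimulated and 453 and 460 CPM in IFNγ libraries, with both IFNγ libraries slightly above. The log2 fold change was 0.24 (95% interval −0.03 to 0.51, edgeR adjusted p = 0.184). With a trend of GC content and length removed from each library it was −0.04 (adjusted p = 0.834), and HLA-C, at 62.7% GC, had the highest GC content of the 9 members.

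HLA-F, a non-classical heavy chain (chr6:29690552-29706305, plus strand), was scarce, with 64 and 36 counts before and 88 and 46 after. Its levels were 6.23 and 5.04 CPM against 8.56 and 6.28 CPM, so the lower IFNγ library barely exceeded the higher unstimulated one. The log2 fold change of 0.40 (95% interval −0.24 to 1.03) had an edgeR adjusted p of 0.338. It was 0.13 without IFNγ replicate 1, 0.57 without either unstimulated replicate 1 or IFNγ replicate 2, and 0.20 with the trend of GC content and length removed, and the adjusted p-value stayed above 0.05 in each.

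B2M, the light chain shared by class I molecules (chr15:45003556-45011049, plus strand), had 4029 and 3776 counts before and 4512 and 4117 after. The levels were 392 and 529 CPM in unstimulated and 439 and 562 CPM in IFNγ libraries, with overlapping conditions and replicate 2 above replicate 1 in both. The log2 fold change of 0.12 (95% interval −0.30 to 0.54, edgeR adjusted p = 0.675) turned negative without unstimulated replicate 1 (−0.08) or IFNγ replicate 2 (−0.09). It was 0.35 without unstimulated replicate 2, 0.28 without IFNγ replicate 1 and 0.43 (adjusted p = 0.102) with the trend of GC content and length removed, B2M having the lowest GC content of the members at 38.9%.

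Since near-identical stretches could move reads between heavy chain genes, their counts were also summed. The 4 genes together had 6149 and 4788 counts in unstimulated and 11529 and 8130 counts in IFNγ libraries. The scaled sums were 599 and 671 CPM before and 1121 and 1109 CPM after. The sum rose 1.76-fold, a log2 fold change of 0.81 (95% interval 0.56 to 1.07, edgeR adjusted p = 0.00389).

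The makeup of this sum differed between conditions. HLA-E made up 23.6% and 23.1% of the heavy chain counts before and 48.4% and 46.9% after IFNγ (each library's Wilson 95% interval was within 45.8 to 49.3% for IFNγ and 21.9 to 24.7% for unstimulated). HLA-C made up 60.0% and 61.8% before and 40.4% and 41.5% after. HLA-B went from 15.4% and 14.4% to 10.4% and 11.0%. For these 3 genes the conditions did not overlap, but 2 libraries against 2 cannot give a two-sided exact permutation p below 0.333, which each of them had. HLA-F was the smallest share, at 1.04% and 0.752% before and 0.763% and 0.566% after, with overlapping conditions (exact permutation p = 0.667). The HLA-E share was 24.3 points higher after IFNγ, or 23.7 points with HLA-G and class I pseudogenes in the total and 24.1 points with counts divided by exon length.

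**Figure D3:**
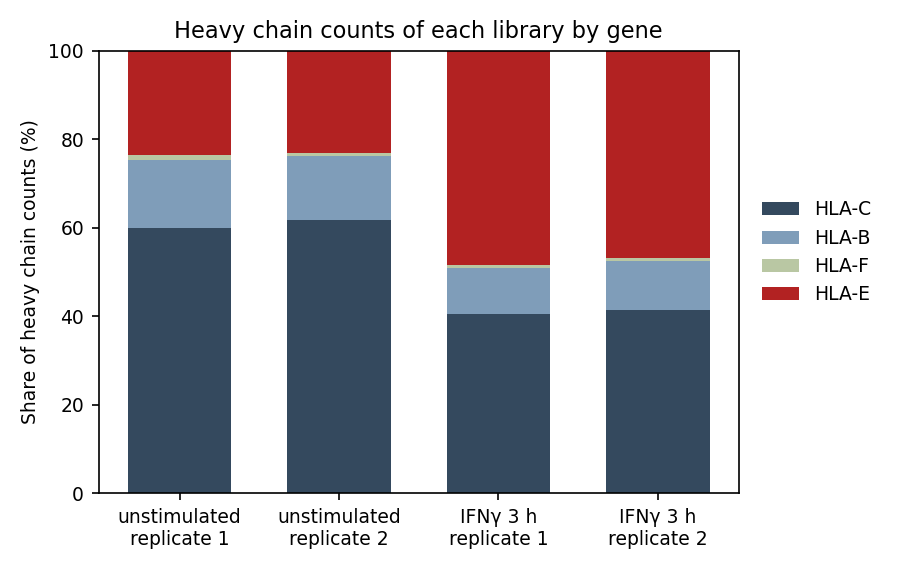
Share (%) of HLA-C, HLA-B, HLA-F and HLA-E in the summed counts of these 4 heavy chain genes, as a stacked bar for each library. The HLA-E segment grows from 23.6% and 23.1% in the unstimulated libraries to 48.4% and 46.9% after IFNγ.

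Per kilobase of exon, the order of the members before stimulation ran from HLA-C at 154 CPM per kilobase and B2M at 148 through HLA-E at 50.7, HLA-B at 20.4 and TAPBP at 19.2 to HLA-F at 1.31, TAP2 at 0.953, TAP1 at 0.612 and NLRC5 at 0.0174 (means of 2 libraries). HLA-C and B2M overlapped, as did HLA-B and TAPBP, and each other step exceeded the range of the libraries. After IFNγ the order was HLA-C at 182, HLA-E at 182, B2M at 160, HLA-B at 25.8, TAP1 at 24.7, TAPBP at 23.8, NLRC5 at 2.31, TAP2 at 1.83 and HLA-F at 1.72. HLA-E overlapped HLA-C and B2M, TAP1 overlapped HLA-B and TAPBP, and NLRC5, TAP2 and HLA-F overlapped each other. With the longest transcript in place of all exons, TAPBP ranked above HLA-B in both conditions and TAP1 ranked above both after IFNγ.

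HLA-E was at 0.337 and 0.321 times the HLA-C level per kilobase before stimulation and at 1.03 and 0.970 times after. B2M was at 0.590 and 0.705 times the summed heavy chain level per kilobase before and at 0.357 and 0.462 times after. The latter ratio was lower in both IFNγ libraries than in either unstimulated library.

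Around the members, 5 lists of class I genes were read from the same fit. Together 47 of their 53 genes were tested, 3 were called higher and 0 lower, beside 2.88% and 4.40% of all tested genes. At an unadjusted p under 0.05, 21 of the 47 passed in either direction, and 35.4% of all tested genes did.

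Of 5 immunoproteasome and PA28 genes, 2 were called higher, beside 2.88% of all tested genes. PSMB9 is a catalytic subunit of the immunoproteasome known to share a promoter with TAP1. PSMB9 had 10 and 7 counts before and 134 and 67 after (log2 fold change 3.50, edgeR adjusted p = 0.00150). It passed the filter on low counts only through its IFNγ libraries. PSMB8, another catalytic subunit, had 40 and 25 counts before and 88 and 55 after (log2 fold change 1.11, adjusted p = 0.0229). The PSMB8 call was lost with DESeq2 (adjusted p = 0.0764), with the trend of GC content and length removed (log2 fold change 0.95), and without unstimulated replicate 1 (adjusted p = 0.0651), unstimulated replicate 2 (0.0838) or IFNγ replicate 1 (0.0780). PSMB10, the remaining catalytic subunit, was at 0.64 (adjusted p = 0.0270), short of the fold threshold.

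Of 15 genes of peptide loading and trimming, none was called by edgeR, beside 2.88% of all tested genes called higher and 4.40% lower. An unadjusted p under 0.05 was reached by 6, beside the 35.4% of all tested genes. The median log2 fold change was 0.07. The chaperone HSPA5 had the largest value, 0.40 (adjusted p = 0.0608), and the peptidase TPP2 the smallest, −0.91 (adjusted p = 0.00713). TPP2 and LNPEP (−0.62, adjusted p = 0.0186), an aminopeptidase, were the members of that list with an adjusted p under 0.05, both under the fold threshold.

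Of 15 transcription factors that act at class I promoters, 14 were tested and 1, IRF1, was called higher, beside 2.88% of all tested genes. At an unadjusted edgeR p under 0.05, 9 of the 14 passed in either direction, beside 35.4% of all tested genes. IRF1 was also among the 10 genes listed as a check of the labels. IRF1 had 198 and 144 counts before and 12348 and 7949 after (log2 fold change 5.86, edgeR adjusted p = 7.43e-06). RELA, an NF-κB subunit, was at 0.78 (adjusted p = 0.00523), RFX5 at −0.60 (0.0269) and CREB1 at −0.71 (0.0139), each under the fold threshold. CIITA, the class II transactivator, was not tested, with 11 and 3 counts before and 18 and 8 after.

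Of 9 class I-like genes, 8 were tested and none was called by edgeR, with 2 at an unadjusted p under 0.05. Over all tested genes, 2.88% were called higher and 4.40% lower, and 35.4% had an unadjusted p under 0.05. Values ran from −0.99 for HLA-G (adjusted p = 0.208) to 0.30 for PROCR (adjusted p = 0.297). MICB, a ligand of NKG2D, was at −0.75 (adjusted p = 0.0401). CD1D had 0 counts in every library. Of 9 class I pseudogenes, 5 were tested and none was called, with 0 at an unadjusted p under 0.05, beside the same shares of all tested genes. They ran from −0.68 for HLA-V to 0.36 for HLA-J.

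**Figure D4:**
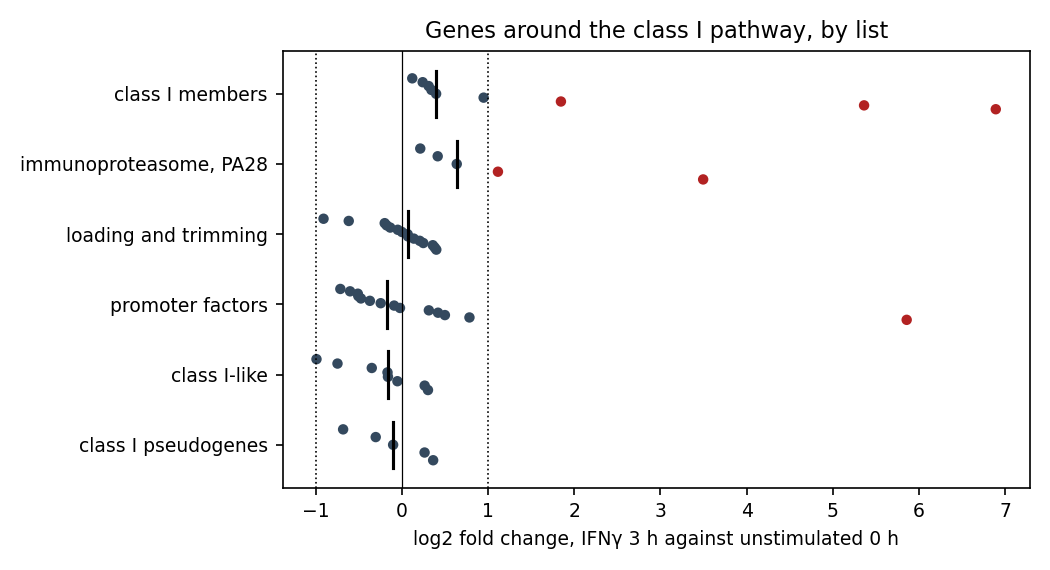
Log2 fold change of each tested gene of the class I members and of 5 related lists, with called genes in red, the median of each list as a black bar and dotted lines at the fold threshold. IRF1 at 5.86 and PSMB9 at 3.50 stand apart from the other genes of their lists.

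In the genome, 7 of the 9 members lie within 3.592 Mb of the MHC region (chr6:29690552-33282061 on GRCh37, from HLA-F to TAPBP). Of 241 genes of the table in that span, 112 were tested, and 105 of these are not members. Of the 105, 8 were called higher and 1 lower, beside 2.88% and 4.40% of all tested genes. The median log2 fold change of the 105 was 0.11, beside −0.01 over all tested genes. Among those called higher were PSMB9 and PSMB8, whose annotated starts lay −0.00968 and −0.00914 Mb from that of TAP1. PSMB8-AS1, at −0.00974 Mb, was another, while TAP2, at −0.0151 Mb, was not called. PSMB8-AS1 had 1 and 0 counts before and 33 and 11 after IFNγ. It passed the filter on low counts only through its IFNγ libraries. Its exons overlap those of TAP1, and the part of TAP1 reads in its call was not tested. The start used here is the outermost one annotated for the whole gene, so for PSMB9 it need not be the promoter shared with TAP1. The other 5 called higher lay farther off, TRIM31, TRIM40 and TRIM26 at −2.74 to −2.64 Mb and PPP1R18 and IER3 at −2.17 and −2.11 Mb, with TRIM40 at a log2 fold change of 4.68 (edgeR adjusted p = 0.000194). HCG27, at −1.66 Mb, was the gene called lower (−2.91). HLA-C and HLA-B, at −1.58 and −1.49 Mb, were not called either, and HLA-E, at −2.36 Mb, was.

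**Figure D5:**
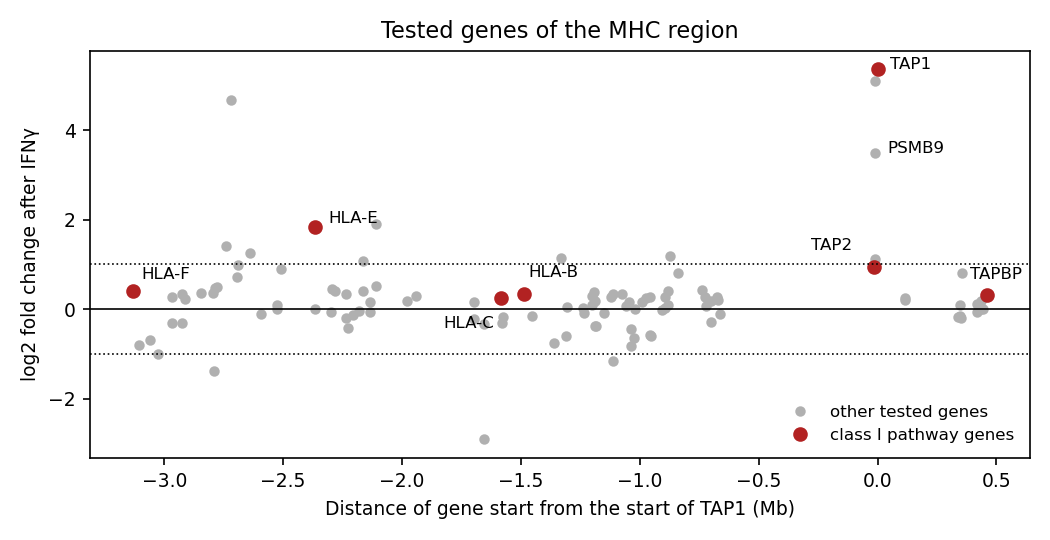
Log2 fold change of each of the 112 tested genes of the MHC region against the distance of its start from the start of TAP1 (Mb), with class I pathway genes in red, other tested genes in grey and dotted lines at the fold threshold. TAP1, PSMB8-AS1 (the unlabelled point beside it) and PSMB9 stand high near the origin, TRIM40 at 4.68 stands high at −2.72 Mb, TAP2 is at 0.95, and HLA-E stands above HLA-B and HLA-C.

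Outside the members, the genes closest to TAP1 in their centred log2 CPM over the 4 libraries were STEAP4, IRF1 and LINC01749, at Euclidean distances of 0.408, 0.669 and 0.709. The same 3 genes were the closest to NLRC5, with IRF1 first at 0.796. HLA-B was closest to LMTK3, SCAF1 and GPX3, at distances of 0.0109 to 0.0229, and TAPBP to F7, PRSS16 and PHRF1, at 0.0214 to 0.0228. STEAP4 had 0 counts in both unstimulated libraries and 87 and 64 after IFNγ, and LINC01749 had 1 and 1 before and 224 and 143 after. A prior count of 2 went into these log2 CPM values, so distances of genes with so few counts depend on it. The fitted log2 fold changes were 9.24 for STEAP4, 7.32 for LINC01749 and 5.86 for IRF1, beside 5.36 for TAP1 and 6.89 for NLRC5. All of these values come from the same 4 libraries, and so share their conditions and depths.

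Some member values carry a limit of counting. PSMB8-AS1, a transcript antisense to 14.2% of the TAP1 exons, had 1 and 0 counts before and 33 and 11 after IFNγ, and without strand its reads cannot be told from those of TAP1. HLA-F-AS1 covered 12.4% of the HLA-F exons and had 29 and 17 counts before and 11 and 15 after. Larger overlaps were with DHFRP2 over 30.7% of the HLA-B exons and with unnamed transcripts over 19.5% of the TAP2 and 15.6% of the HLA-F exons, each of which had 0 counts in every library, and with an antisense transcript over 21.0% of the TAPBP exons that has no row in the table used here. How reads that lie over 2 genes were assigned is not stated, so 0 counts need not mean that an overlapping transcript was absent. The part of these overlaps in the levels per kilobase was not tested. Transcripts were also searched for 50-base stretches that recur in other, non-overlapping genes, which held 6.88% of those of HLA-C, 6.16% of HLA-E, 6.35% of HLA-F, 6.32% of TAPBP and 1.77% of HLA-B. TAP1 and TAP2 had 1.13% and 0.586%, and B2M and NLRC5 had none.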

How the data were processed

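The genome build, annotation and strand setting were not given in the sources used here. The authors deposited raw read counts per Ensembl gene, unnormalized and not pooled, and their processing notes name HISAT 0.5.1 and HTSeq 0.6.1p1. In the table, 96.5% of 37515 rows were paired with a symbol. Counts were tested with edgeR 4.0.16 (R 4.3.3; TMM scaling, default filter, quasi-likelihood F test, two-sided, Benjamini-Hochberg over 14820 genes, no block). Calls were made at adjusted p-values below 0.05 where the log2 fold change also exceeded 1 in size. SEs were derived from the fold change and F statistic. Lengths, GC content, locations and overlaps came from GENCODE on GRCh37. Promoters came from RefSeq on GRCh38.p14. The fits were tested on simulated data. Members, lists and tests were chosen with earlier results of these data known. Named were all members, called genes of each list, the extremes of lists without a call, detected markers and the 3 nearest profiles. Other list genes with an adjusted p-value under 0.05, called genes of the MHC region and overlapping transcripts were named after their values were seen. So were CIITA, CXCL9, CXCL10, CD274, SOCS1, CD1D, CDX1, CDX2, KRT8, KRT18 and PTPRC. Alternatives were other scalings, DESeq2 1.42.0, other filters and thresholds, a replicate block, leaving out each library, and removal of a GC and length trend. With 2 libraries per condition, precision was limited by their number.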

Additional observations from a re-analysis of the deposited data

How the results depend on the processing

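HLA-E, TAP1 and NLRC5 kept their direction and stayed past the threshold under each alternative that tested them (log2 fold changes of 1.66 to 1.91, 5.12 to 5.58 and 6.19 to 7.54), and NLRC5 was not tested with at least 10 counts required in every library. Between 2 and 4 members were called higher, and 0 lower, under each alternative. The additional member was TAP2, called with no fold threshold (0.95), with the GC and length trend removed (1.09) and without IFNγ replicate 2 (1.22). With library size only, the edgeR adjusted p-value of TAP2 was 0.0570. The summed heavy chains stayed between 0.58 and 0.90. The median of the members was 0.43 with upper quartile scaling, 0.35 with library size only, 0.42 with no filter on low counts, 0.36 with at least 10 counts, 0.43 with the trend removed, and 0.36 to 0.57 when a library was left out. The related lists had 5 genes called higher with no fold threshold in place of 3, and 2 with DESeq2, at least 10 counts (PSMB9 was then not tested), the trend removed, an adjusted p-value under 0.01, or without unstimulated replicate 1, unstimulated replicate 2 or IFNγ replicate 1. HLA-C reversed with the trend removed (−0.045), and B2M ranged from −0.088 to 0.35 when a library was left out and was 0.43 with the trend removed. The causes were not tested. Where a library was left out, the lone library was assumed to vary like the other condition. Same-numbered libraries deviated together (r = 0.415), but the labels do not say what a number marks. With the replicate block, 492 genes were called higher and 896 lower, HLA-B, HLA-C and TAPBP reached adjusted p-values of 0.0141, 0.0284 and 0.0270, at log2 fold changes of 0.34, 0.24 and 0.31, and the members called higher numbered 3. Over all genes, lower calls were 1239 without IFNγ replicate 1. Depth limits NLRC5 before stimulation, at 3 and 1 counts.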
